A study of Mus musculus with 4 samples.

Results

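Potassium channels and voltage-gated calcium channels were examined at the lesion site of the contused mouse spinal cord. The genes were chosen by symbol: the pore-forming and auxiliary subunits of potassium channels (symbols in Kcna, Kcnab, Kcnb, Kcnc, Kcnd, Kcnf, Kcng, Kcnh, Kcnip, Kcnj, Kcnk, Kcnma, Kcnmb, Kcnn, Kcnq, Kcns, Kcnt and Kcnv) and the alpha1, alpha2delta, beta and gamma subunits of voltage-gated calcium channels (Cacna1a to Cacna1i, Cacna2d, Cacnb, Cacng). Of the 14717 genes listed at either time point, 88 fit, 67 for potassium and 21 for calcium channels. The study compared male targeted replacement mice, which carry human ApoE3 or human ApoE4 instead of mouse ApoE, after a 50 kdyne contusion at thoracic vertebra T9. RNA came from about 4 mm of cord around the lesion, and the mice entered the experiment at 3 to 5 months of age. The 4 groups were ApoE3 at 7 days post injury (dpi), ApoE4 at 7 dpi, ApoE3 at 21 dpi and ApoE4 at 21 dpi. All were injured, so no group here gives the level of an uninjured cord. The methods give 3 mice per group, but the values are 1 FPKM (fragments scaled to transcript length and to sequencing depth) for each gene and group. No difference below therefore has a replicate check, and no test could be made from these values.

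Ratios were taken as log2 of FPKM + 1, so that a ratio above 0 means higher in ApoE3 (or, in the comparisons of time, higher at 21 dpi), and a gene was counted as past the threshold at a fold change of 1.3, which is 0.38 on this scale. The pseudocount shrinks the ratios of genes with low FPKM. Genotypes were read from the name of each comparison, which places ApoE3 first, and from the fold change column, which divides the first value by the second; the numbering of the columns allows the other reading, in which every genotype direction below would be the opposite. The summed FPKM was 1668601 in ApoE3 and 1668668 in ApoE4 at 7 dpi, but 1513370 in ApoE3 and 2049970.4 in ApoE4 at 21 dpi. Among genes with FPKM of at least 10 in both groups, the median log2 ratio of ApoE3 to ApoE4 was 0.0059 at 7 dpi and -0.43 at 21 dpi. The median ratio of 21 to 7 dpi was 0.13 in ApoE3 and 0.57 in ApoE4, and both time points may have been normalized separately. Ratios are therefore also given after rescaling 1 group so that this median became 0, before the pseudocount was added; these are called rescaled.

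Potassium channels set the resting potential of a cell and end its action potentials. They range from voltage-gated channels of axons and fast-spiking neurons to the inward rectifiers with which astrocytes take up the potassium that active neurons release. Voltage-gated calcium channels turn depolarization into calcium entry, which triggers transmitter release at synapses and gene expression in the cell body. Each is built on a pore-forming alpha1 subunit, and in most types alpha2delta and beta subunits help carry it to the membrane, while T-type pores can work without them. In injured cord, demyelinated axons expose potassium channels that normally lie under the myelin sheath beside the node of Ranvier, and microglia and macrophages use potassium channels of their own.

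The mouse RefSeq annotation holds 112 genes that fit the rule. The 24 that were not listed at either time point were Kcna7, Kcna10, Kcng3, Kcnh3, Kcnh4, Kcnh6, Kcnh8, Kcnj1, Kcnj4, Kcnj5, Kcnj13, Kcnk15, Kcnk16, Kcnk18, Kcnmb1, Kcnmb3, Kcnq1, Kcnt2, Kcnv1, Kcnv2, Cacna1f, Cacna2d4, Cacng1 and Cacng6. Among them are Cacng1, a subunit of the skeletal muscle calcium channel, and Cacna1f, of the retina. At 7 dpi 87 channel genes were listed and at 21 dpi 70, with 69 at both. The 18 listed at 7 dpi only (20.7% of 87, against 23% of all genes) were not the scarcest: their median FPKM at 7 dpi was 38.5, against 24.6 for those at both. They included Kcnh2, the pore of an ERG potassium channel, at 258 and 238 in ApoE3 and ApoE4. A missing row was not taken as a level of 0. The gene listed at 21 dpi only was Kcnk7. No channel gene had a mean FPKM below 1 at either time point, so a filter at that level removed none.

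Levels spanned more than 3 orders of magnitude, and a few genes held most of the summed FPKM. The median and the lowest channel gene were at 30.1 and 1.41 (Kcnf1) in ApoE3 at 7 dpi and at 28.1 and 1.10 (Kcnf1) in ApoE4. At 21 dpi the highest, the median and the lowest were at 2596 (Kcnab2), 31.3 and 0.983 (Kcnh5) in ApoE3 and at 3208 (Kcnab2), 44.2 and 1.92 (Kcnf1) in ApoE4. The 10 most abundant took 67.5%, 67.9%, 76.4% and 75.2% of the summed channel FPKM in these groups, and the whole list took 0.724%, 0.653%, 0.925% and 0.843% of the FPKM of all genes. FPKM is divided by transcript length, but the transcripts used for each gene are unknown. Ranks and shares between different genes are therefore only approximate.

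Kcnab2, the cytoplasmic beta subunit of axonal Kv1 channels, stood at 1626 and 1337 at 7 dpi and 2596 and 3208 at 21 dpi, given here and below as ApoE3 and ApoE4. Kcnt1, a potassium channel opened by intracellular sodium, stood at 841 and 814 at 7 dpi and 1921 and 1976 at 21 dpi. Both neuronal genes were higher at 21 than at 7 dpi in both genotypes. Cacna1g, the pore of a T-type calcium channel opened by small depolarizations, was the most abundant alpha1 subunit, at 815 and 839.8 at 7 dpi and 1273 and 1434 at 21 dpi. The most abundant gene of glial cells was Kcnj10, the inward rectifier of astrocytes and oligodendrocytes, at 624 and 563 at 7 dpi and 368 and 588 at 21 dpi. It had its lowest value in ApoE3 at 21 dpi. Further down, Kcnma1, the pore of the large-conductance BK channel, stood at 368 and 313 at 7 dpi and 296 and 420.5 at 21 dpi, and Cacna1c, the pore of an L-type channel, at 278 and 246 at 7 dpi and 216 and 348 at 21 dpi.

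**Figure D1:**
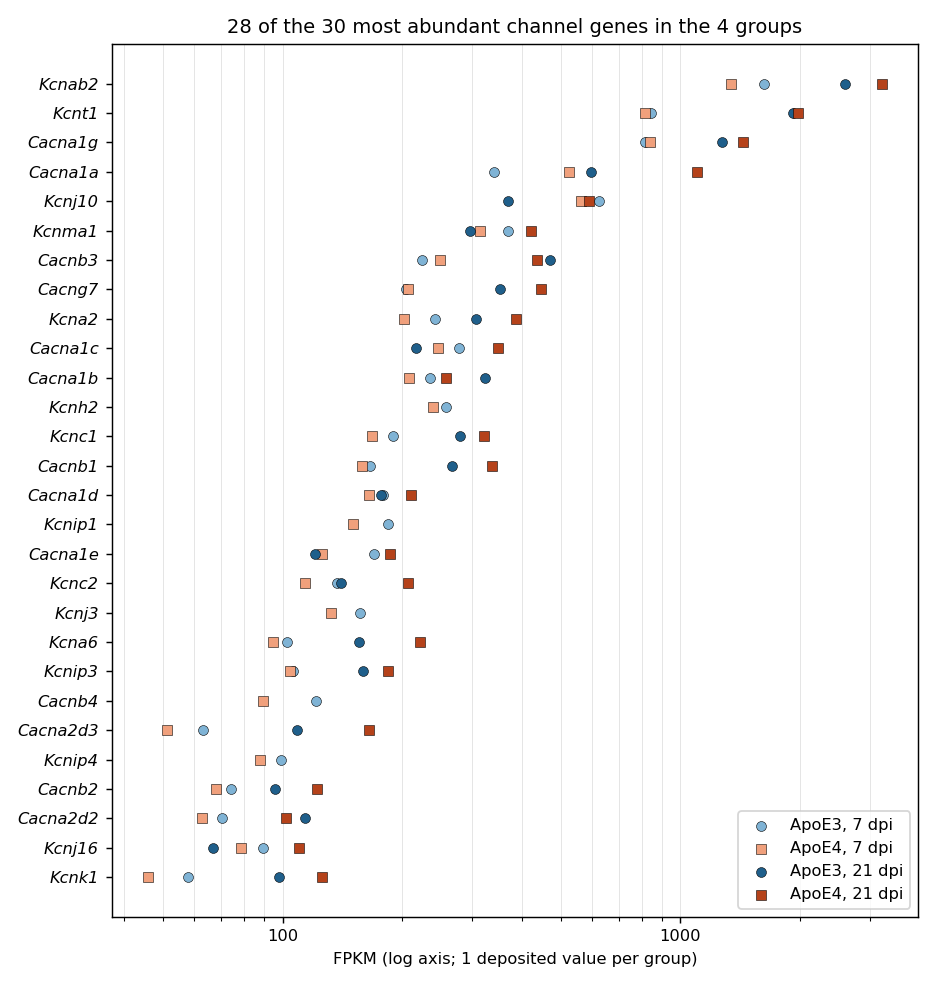
FPKM (log axis) of 28 of the 30 channel genes with the highest mean FPKM; each point is the single value of a group, circles for ApoE3 and squares for ApoE4, pale at 7 dpi and dark at 21 dpi. Of the genes drawn Kcnab2 lies highest, reaching 3208 in ApoE4 at 21 dpi, and genes without dark points, such as Kcnh2, were not listed at 21 dpi.

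At 7 dpi most channel genes were slightly higher in ApoE3, and few passed the threshold. Of 87 listed, 68 (78.2%) had a ratio above 0, against 50.5% of the 14123 genes, and their median ratio was 0.18, against 0.0020 for all genes. Past 1.3-fold, 6 channel genes (6.9%) were higher in ApoE3, against 3.78% of all genes, and 2 (2.3%) were higher in ApoE4, against 4.76%. This balance did not hold at 1.5-fold, where 1 was higher in ApoE3 and 2 in ApoE4, against 1.22% and 1.51%. Rescaling moved no channel gene across the threshold. The tilt was wide but small: the middle of the list, from its lower to its upper quartile, ran from 0.043 to 0.27. In bulk tissue, fewer cells of a type and less RNA per cell cannot be told apart. The neuron markers moved the same way: all 13 listed of 15 were higher in ApoE3 on the rescaled scale, with a median of 0.24 and summed FPKM of 10910.1 and 8628; Snap25, the most abundant over the groups, stood at 3366 and 2545. On the rescaled scale 49.2% of all genes had a ratio above 0. None of the neuron markers was at an FPKM of 0. Their part in the tilt of the channel genes was not tested.

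The 2 genes higher in ApoE4 at 7 dpi differ in kind. Kcnn4, the intermediate-conductance calcium-activated channel of microglia, macrophages and lymphocytes, stood at 18.9 and 29.9, a rescaled ratio of -0.64 (1.56-fold higher in ApoE4), and was not listed at 21 dpi. Of 10 listed markers of microglia and macrophages, 8 were also higher in ApoE4 at 7 dpi on the rescaled scale, with a median of -0.25 and summed FPKM of 7785 and 9989.9; Lyz2, the most abundant, stood at 4522 and 6076, and none was at 0. Of all genes, 49.2% were higher in ApoE3 on that scale. Whether Kcnn4 followed the number of microglia and macrophages was not tested. Kcnk13, a background potassium channel of microglia, stood at 34.9 and 39.3, a rescaled ratio of -0.17, and Kcna3, a Kv1 channel of lymphocytes and microglia, at 2.28 and 2.30. Neither passed 1.3-fold. The other gene higher in ApoE4 was Cacna1a, the pore of the P/Q-type calcium channel of presynaptic terminals, at 339 and 526, a rescaled ratio of -0.64 (1.55-fold).

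ApoE3 at 7 dpi had 3 potassium and 3 calcium channel genes past the threshold. Kcnj11, the pore of the ATP-sensitive potassium channel, stood at 25.5 and 16.5, a rescaled ratio of 0.59. Its regulatory partner Abcc8, which is not a channel gene of the rule, stood at 81.3 and 61.1, a ratio of 0.40. Both genes were thus past the threshold in the same direction. Abcc9, also on the list of partners, stood at 34.1 and 28.8 (0.23) and was not past it. Kcnmb2, a beta subunit that inactivates BK channels, stood at 9.16 and 5.81 (0.57), and Kcnk10, a background channel opened by membrane stretch, at 17.6 and 13.2 (0.39). Among calcium channel genes, Cacna2d1, the alpha2delta subunit that binds gabapentin, stood at 81.4 and 58.4 (0.46). Cacnb4, a beta subunit, stood at 121 and 89.1 (0.44). Cacna1e, the pore of the R-type channel, stood at 170.1 and 126 (0.43). Kcnk10, at 1.31-fold, was the closest of them to the threshold. Next below the threshold were Kcnn1, a small-conductance calcium-activated channel, at 35.0 and 44.9 (-0.36), and Kcnh1, an EAG channel, at 11.7 and 8.88 (0.35).

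By family, the tilt toward ApoE3 at 7 dpi ran through most groups of channels, voltage-gated or not. All 4 Kv3 genes, all 3 Kv beta genes and all 7 silent subunits, which do not form channels alone, had rescaled ratios above 0, with medians of 0.22, 0.32 and 0.19. None of these 14 passed 1.3-fold. In Kv1, Kv4 and Kv7, 5 of 6, 2 of 3 and 3 of 4 genes were above 0. Outside the voltage-gated potassium channels, so were all 3 alpha2delta genes (median 0.28), all 3 BK genes (0.23) and 8 of 10 background channel genes (0.23). The 4 SK and intermediate-conductance genes had a median of -0.18, the only family median below 0 among the 18 families. Kcnj8, the ATP-sensitive channel pore of pericytes, stood at 8.56 and 10.7 (-0.30), whereas Kcnj10 and Kcnj16 of astrocytes had ratios of 0.14 and 0.17.

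At 21 dpi the deposited values placed nearly all channel genes higher in ApoE4, as they did most genes of the table. As deposited, 39 of 70 channel genes (55.7%) were past 1.3-fold higher in ApoE4, against 58.9% of the 11470 genes, and 1 (1.43%) was higher in ApoE3, against 2.01%. Their median was -0.42, and that of all genes -0.42. After rescaling, 6 (8.57%) were higher in ApoE4, against 9.6% of all genes, and 6 (8.57%) in ApoE3, against 6.52%. The rescaled median was -0.0089, against -0.016 for all genes, and 33 of 70 (47.1%) were above 0, against 47.2%. As a list the channel genes thus lay with the rest of the table at 21 dpi, and the differences were in single genes. The tilt of 7 dpi did not recur, with 47.1% above 0 against 47.2%. Of 69 genes listed at both time points, 32 were above 0 at 7 dpi and below 0 at 21 dpi on the rescaled scale. Another 24 were above 0 at both, 4 below at both and 9 went from below to above. The same counts over all genes are not given here.

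Calcium channel genes made up 3 of the 6 that were higher in ApoE3 at 21 dpi. Cacna1b, the pore of the N-type channel of presynaptic terminals and sensory neurons, stood at 322 and 257, a ratio of 0.32 as deposited and 0.75 after rescaling (1.69-fold). Cacna2d2, another target of gabapentin, stood at 114 and 102 (0.16 as deposited, 0.59 rescaled). Cacnb3, a beta subunit, stood at 471 and 436 (0.11 and 0.54). Each of these 3 was higher in ApoE3 on both scales, and past 1.3-fold only after rescaling. Of 19 calcium channel genes listed, 3 passed in ApoE3 and 1 in ApoE4 after rescaling, against 6.52% and 9.6% of all genes. The rescaled median of the 19 was 0.077, with 10 above 0. The other alpha2delta genes stood at -0.010 and -0.17, and the other listed beta genes at 0.099 and 0.077. Of potassium channels, Kcnk5, an acid-sensitive background channel, stood at 4.11 and 2.92 (0.38 and 0.74), and was the only one of the 6 past 1.3-fold without rescaling. Kcnh7, an ERG-type channel of neurons, stood at 25.8 and 25.1 (0.039 and 0.46). Kcnt1 stood at 1921 and 1976, a ratio that turned from -0.041 as deposited to 0.39 after rescaling, so its direction depends on the scale.

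The 6 genes higher in ApoE4 at 21 dpi after rescaling were Cacna1a and 5 potassium channel genes, all in the same direction as deposited. Cacna1a stood at 597 and 1099, -0.88 as deposited and -0.45 rescaled, and was the gene past the threshold in ApoE4 at both time points. Kcnk12, a silent relative of Kcnk13, stood at 3.38 and 7.50 (-0.61 rescaled), Kcnk9, an acid-sensitive background channel of neurons, at 21.0 and 38.7 (-0.44), and Kcnk7 at 2.38 and 5.003 (-0.51). Kcnj6, a rectifier opened by G protein-coupled receptors, stood at 4.96 and 10.1 (-0.53), whereas Kcnj9, with which it forms channels, stood at 19.8 and 26.6 (0.0044, and -0.41 as deposited). Kcnmb2 stood at 7.36 and 14.1 (-0.46), the opposite of its direction at 7 dpi. Kcnh5, at 0.983 and 2.02 (-0.38), was the nearest to 1.3-fold of those that did not reach it.

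**Figure D2:**
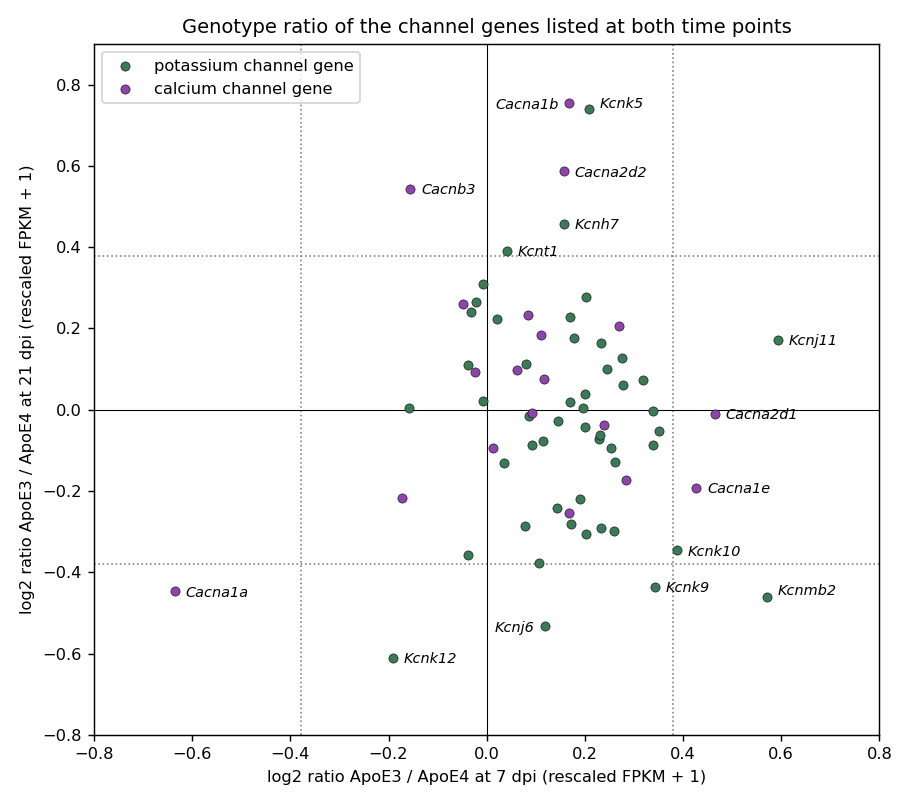
Rescaled log2 ratio of ApoE3 to ApoE4 at 7 dpi (x axis) and 21 dpi (y axis) for the 69 channel genes listed at both time points, green for potassium and purple for calcium channels; dotted lines mark 1.3-fold and genes past it at either time are named. Most points lie right of 0 at 7 dpi; Cacna1a alone lies past 1.3-fold in ApoE4 at both times, and Kcnmb2 lies past it in opposite directions.

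Among tissues outside the cord, Schwann cell and muscle markers had median ratios farther from 0 at 21 dpi than any channel gene. Sensory ganglion markers did so over all listed then, but not over those listed at both times. Of 13 listed of 15 markers of sensory ganglion neurons, 9 were past 1.3-fold higher in ApoE3 after rescaling and 1 in ApoE4, with a median of 1.39. Their summed FPKM, here and below over the markers listed at each time, was 599, 464, 973 and 1149 in the groups in the order above; Calca, the most abundant, stood at 702 and 829.5 at 21 dpi, and Trpv1 and Mrgprd were listed at 0 in ApoE4. Of 11 listed of 12 Schwann cell markers, 9 were higher in ApoE3 and 0 in ApoE4, with a median of 1.42 and summed FPKM of 928, 929.8, 3447 and 1317; Pmp22, the most abundant, stood at 1970.0 and 992. Of 11 listed of 17 skeletal muscle markers, 9 were higher in ApoE4 and 0 in ApoE3, with a median of -2.14 and summed FPKM of 184, 150.0, 73.6 and 797; Tnnt3, the most abundant, stood at 22.5 and 516, and Myh4 was listed at 0 in ApoE3. Of the muscle sums at 7 dpi, Pvalb alone held 98.3 in ApoE3 and 86.4 in ApoE4, and it was not listed at 21 dpi. At 7 dpi the medians of these lists were 0.23, -0.074 and 0.17, over the 8, 10 and 10 markers listed then. Only 7 of the sensory ganglion markers were listed at both times, and their middle ratio at 21 dpi was that of Calca, 0.19. Cacna1b is also abundant in sensory neurons, and the part of ganglion, nerve root or muscle RNA in the ratios of the channel genes at 21 dpi was not tested. Cacna1s, the alpha1 subunit of muscle, falls outside the rule, and stood at 1.27 and 5.07 at 21 dpi.

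Ratios between genes within a group need no scaling. For the calcium channels that drive transmitter release, they restate the values given above. They are thus no separate support for the genotype differences of these genes. Cacna1a, Cacna1b and Cacna1e code for the P/Q-, N- and R-type pores. Of their summed FPKM, Cacna1a made up 45.6% in ApoE3 and 61.2% in ApoE4 at 7 dpi, and 57.4% and 71.2% at 21 dpi. Cacna1b made up 31.5% and 24.2% at 7 dpi and 31.0% and 16.7% at 21 dpi, and Cacna1e 22.9% and 14.6%, then 11.6% and 12.1%. The P/Q-type share was higher in ApoE4 at both time points and higher at 21 than at 7 dpi in both genotypes. FPKM of Cacna1a was 1.45 and 2.53 times that of Cacna1b at 7 dpi and 1.85 and 4.27 times at 21 dpi. Among all 8 listed alpha1 genes, Cacna1a held 16.4%, 24.3%, 21.5% and 30.3% of the FPKM. How many isoforms or reads lie behind these values is unknown.

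**Figure D3:**
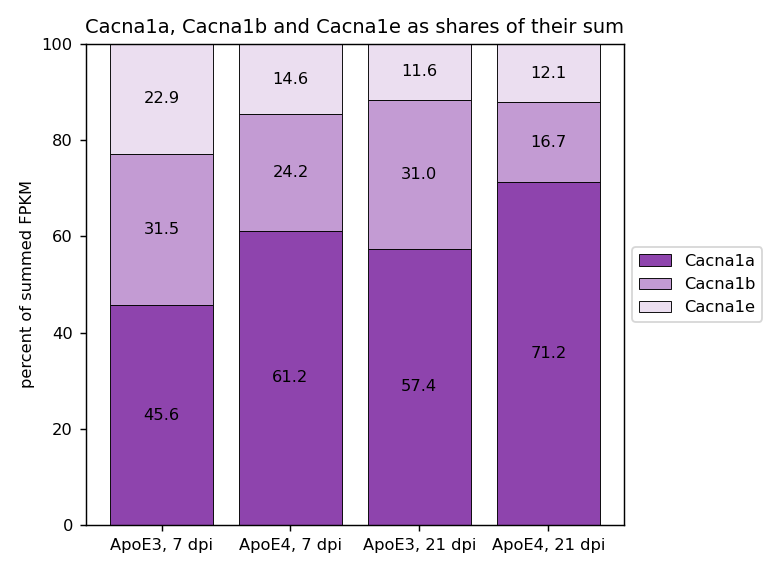
Stacked bars of the percent of the summed FPKM of Cacna1a, Cacna1b and Cacna1e held by each gene, 1 bar per group from its single values. The Cacna1a part is larger in ApoE4 than in ApoE3 at 7 dpi (61.2% against 45.6%) and at 21 dpi (71.2% against 57.4%).

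None of the other 5 alpha1 genes passed 1.3-fold between genotypes at either time point on the rescaled scale. Cacna1d, an L-type pore, stood at 179 and 165 at 7 dpi and 177 and 210.4 at 21 dpi, with rescaled ratios of 0.11 and 0.18. Cacna1h, a T-type pore of sensory neurons, stood at 42.4 and 39.8 at 7 dpi and 61.8 and 70.9 at 21 dpi (0.084 and 0.23). Cacna1c had ratios of 0.17 and -0.25, Cacna1g of -0.049 and 0.26, and Cacna1i, a further T-type pore, of -0.17 and -0.22. As deposited all 5 were higher in ApoE4 at 21 dpi, and Cacna1c (-0.69) and Cacna1i (-0.62) were past 1.3-fold. Cacna2d3, the alpha2delta subunit abundant in the nervous system but not bound by gabapentin, stood at 62.9 and 51.3 at 7 dpi and 108 and 165 at 21 dpi (0.28 and -0.17). Gamma subunits of the nervous system mainly escort AMPA-type glutamate receptors, and none of the 6 listed at 7 dpi or of the 5 at 21 dpi passed the threshold on the rescaled scale; as deposited 3 of the 5 were past it higher in ApoE4 at 21 dpi, among them Cacng4 (-0.42). Cacng7, the most abundant of them, stood at 204 and 207 at 7 dpi and 352 and 445 at 21 dpi, and Cacng4, also of glial precursors, at 16.9 and 15.8 at 7 dpi and 17.9 and 24.3 at 21 dpi.

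Between 7 and 21 dpi the channel genes were past 1.3-fold higher more often than other genes in both genotypes. As deposited, 37 of 69 (53.6%) were past 1.3-fold higher at 21 dpi in ApoE3, against 31.3% of 10876 genes, and 10 (14.5%) were lower, against 23.6%. In ApoE4 57 (82.6%) were higher, against 59%, and 2 (2.9%) lower, against 10.9%. After rescaling, 29 (42%) were higher in ApoE3, against 24.7% of all genes, and 15 (21.7%) lower, against 29.1%. In ApoE4 30 (43.5%) were higher, against 25.3%, and 5 (7.25%) lower, against 28.2%. The rescaled medians were 0.33 in ApoE3 and 0.30 in ApoE4, against -0.030 and -0.0049 for all genes. In ApoE3 this did not hold past 1.5-fold after rescaling, a setting added after seeing the data, where 9 of 69 were higher, against 14.9% of all genes; in ApoE4 21 were, against 15.7%. At 1.3-fold after rescaling 20 genes were past 1.3-fold higher at 21 dpi in both genotypes and 5 lower in both. Another 9 were higher in ApoE3 and not in ApoE4, 10 were higher in ApoE4 and not in ApoE3, and 10 were lower in ApoE3 and not in ApoE4. Kcnmb2, higher in ApoE4 and lower in ApoE3, is in both of these counts of 10. Whether the change differed between genotypes was not tested. These overlaps are given without those of all genes, so they do not set the channel genes apart. Since levels at the 2 time points may come from separate normalizations, the ratios below are rescaled unless stated.

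Several genes of neuronal channels and their binding proteins were higher at 21 dpi. Kcnip2, a calcium sensor that binds Kv4 channels, stood at 30.1 and 30.2 at 7 dpi and 73.7 and 80.0 at 21 dpi, ratios of 1.13 in ApoE3 and 0.82 in ApoE4. Kcnt1 had ratios of 1.06 and 0.71, and Kcnab2 of 0.54 and 0.70. Kcnk1, a weakly rectifying background channel of neurons and astrocytes, stood at 57.7 and 45.9 at 7 dpi and 97.8 and 126 at 21 dpi (0.62 and 0.87). All 4 were past the threshold in both genotypes. Kcnmb4, the neuronal beta subunit of BK channels, stood at 30.1 and 28.1 at 7 dpi and 46.9 and 67.2 at 21 dpi (0.50 and 0.68), while the pore Kcnma1 had ratios of -0.44 and -0.14, and 0.43 in ApoE4 as deposited. Kcna6, an axonal Kv1 subunit, stood at 103 and 94.5 at 7 dpi and 156 and 222 at 21 dpi (0.46 and 0.66). Kcnc1, a Kv3 pore of fast-spiking cells, had ratios of 0.43 and 0.37, and Kcnip3 of 0.45 and 0.25. Kcnmb4 and Kcna6 passed the threshold in both genotypes. After rescaling Kcnc1 and Kcnip3 passed it in ApoE3 and not in ApoE4, and as deposited in both (0.93 and 0.81 in ApoE4), and the difference between genotypes was not tested.

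Some calcium channel subunits were also higher at 21 dpi. Of 19 listed at both times, 10 were past the threshold higher in ApoE3, against 24.7% of all genes, and 2 lower, against 29.1%. In ApoE4 7 were higher, against 25.3%, and 0 lower, against 28.2%. Cacna1a had ratios of 0.68 in ApoE3 and 0.50 in ApoE4. Cacnb1, a beta subunit, stood at 166 and 158 at 7 dpi and 266 and 335 at 21 dpi (0.55 and 0.52), and Cacng7 had ratios of 0.65 and 0.54. Cacna2d3 had ratios of 0.65 and 1.11, the latter the largest of any channel gene in ApoE4. For Cacnb3 the ratios were 0.94 and 0.25, and for Cacna1b 0.33 and -0.26; as deposited Cacna1b was higher at 21 dpi in both, at 0.46 and 0.31. Cacna1e was lower in ApoE3 (-0.62) and level in ApoE4 (-0.0007, and 0.56 as deposited).

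The Kv1 channels that lie beside the node split. Kcna1 stood at 27.7 and 21.6 at 7 dpi and 12.3 and 16.6 at 21 dpi, ratios of -1.23 in ApoE3 and -0.89 in ApoE4, and it was lower at 21 dpi also as deposited. Kcna2, with which it forms channels in myelinated axons, stood at 241 and 202 at 7 dpi and 306 and 385 at 21 dpi (0.21 and 0.36). FPKM of Kcna2 was 8.72 and 9.38 times that of Kcna1 at 7 dpi and 24.9 and 23.2 times at 21 dpi. This ratio needs no scaling and moved alike in both genotypes. Kcna1 held 7.37% and 6.71% of the FPKM of the 5 Kv1 genes listed at both times at 7 dpi, and 2.56% and 2.64% at 21 dpi. Cntnap2, which with Cntn2 anchors these channels beside the node, stood at 68.4 and 50.9 at 7 dpi and 86.6 and 123 at 21 dpi; Cntn2 was listed at 7 dpi only, at 212 and 199.

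Past 1.3-fold lower at 21 dpi in both genotypes after rescaling were Kcna1, Kcnj10, Kcnj2, Kcnk6 and Kcnn3. Kcnj10 had ratios of -0.89 and -0.50, and it alone of these genes changed direction as deposited, to 0.063 in ApoE4. Kcna1 (-0.36) and Kcnn3 (-0.11) were lower as deposited in ApoE4, but not past the threshold. Kcnj16, which joins Kcnj10 in astrocytes, stood at 89.1 and 78.7 at 7 dpi and 66.9 and 110.0 at 21 dpi (-0.54 and -0.082, and 0.48 in ApoE4 as deposited). Of 10 astrocyte markers listed at both times, 4 were past the threshold lower in ApoE3 and 2 higher, and 3 lower and 3 higher in ApoE4, with medians of -0.35 in ApoE3 and -0.22 in ApoE4 (0.34 as deposited); the summed FPKM of the 10 listed at 7 dpi and the 11 at 21 dpi was 18024, 17555, 14659 and 25320.5, Gfap was the most abundant at 12395 and 12386 at 7 dpi and 8201 and 15313 at 21 dpi, and none was at 0. Kcnk6, a background channel that macrophages use for potassium efflux, stood at 6.12 and 5.72 at 7 dpi and 2.28 and 3.98 at 21 dpi (-1.21 and -0.87). Kcnj2, a strong inward rectifier found in macrophages, microglia and vessels among others, stood at 4.88 and 5.53 at 7 dpi and 2.95 and 3.97 at 21 dpi (-0.67 and -0.83). All 6 markers of microglia and macrophages listed at both times were past the threshold lower in both genotypes after rescaling. Their rescaled medians were -1.69 in ApoE3 and -1.47 in ApoE4. As deposited in ApoE4, Aif1 was higher at 21 dpi (0.17), Tmem119 was not past the threshold (-0.16), and the median was -0.92. Summed FPKM was 7785, 9989.9, 523 and 987 over the markers listed at each time. The part of cell numbers in these changes was not tested.

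Among other genes of the families that set excitability, Kcnd2, a Kv4 pore of dendrites, stood at 6.46 and 5.47 at 7 dpi and 5.10 and 8.74 at 21 dpi (-0.40 in ApoE3 and 0.094 in ApoE4), and Kcnd3, the most abundant Kv4 gene, at 14.6 and 11.8 at 7 dpi and 13.8 and 17.9 at 21 dpi. Kcnn2, a small-conductance channel that sets the pause after a spike, stood at 45.3 and 45.3 at 7 dpi and 65.1 and 86.6 at 21 dpi (0.39 and 0.36). Kcng4, a silent subunit, stood at 46.1 and 38.9 at 7 dpi and 66.7 and 110.5 at 21 dpi (0.39 and 0.92). In ApoE3 Kcnd2 was thus lower and Kcnn2 and Kcng4 higher, while in ApoE4 all 3 ratios were above 0. The 8 inward rectifiers listed at both times ran from -0.89 to 0.76 in ApoE3 and from -0.83 to 1.07 in ApoE4. Kcnk2, a stretch-activated background channel, was listed at 7 dpi only, at 52.9 and 46.1, and so was Kcnip1, the most abundant KChIP gene, at 184 and 151.

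**Figure D4:**
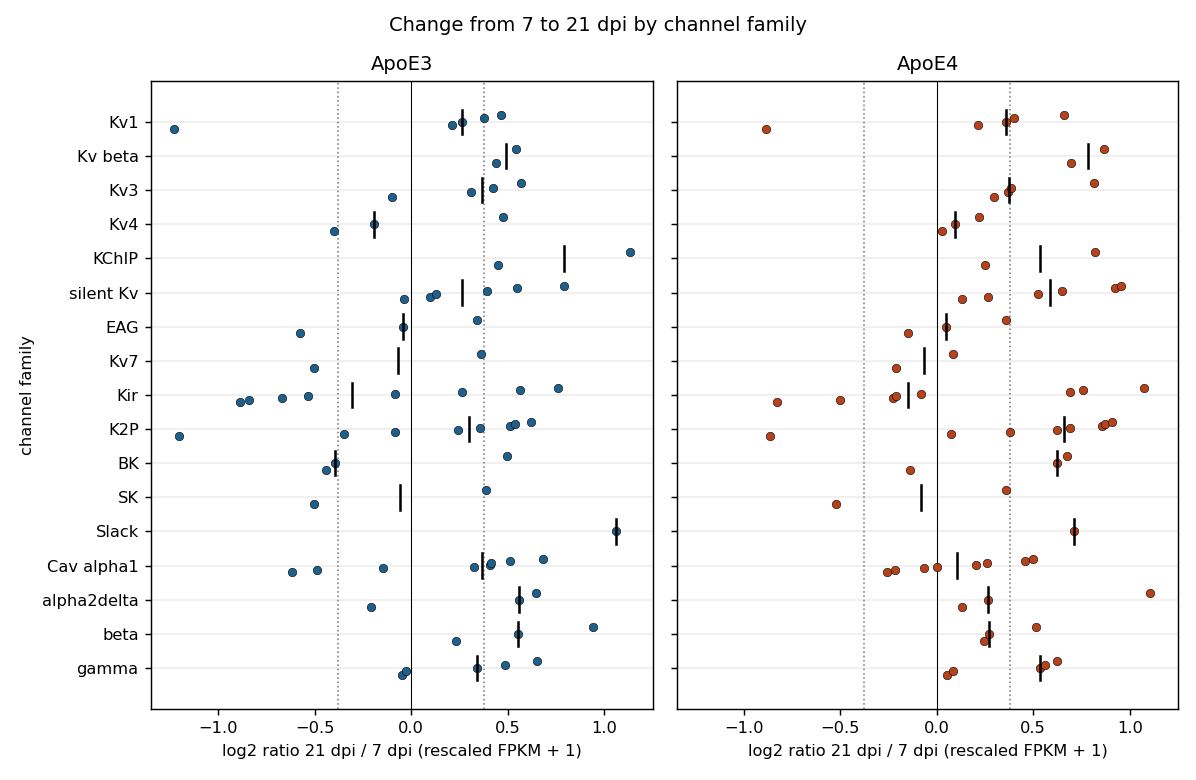
Rescaled log2 ratio of 21 to 7 dpi (x axis) for channel genes listed at both time points, by family, in ApoE3 (left) and ApoE4 (right); bars mark the family median and dotted lines 1.3-fold. Most families have medians above 0 in both genotypes; the leftmost point in each panel is Kcna1, at -1.23 in ApoE3 and -0.89 in ApoE4.

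Partners of these channels outside the rule were examined as a list of 44 genes, which held other auxiliary subunits, HCN and NALCN channels, and the proteins that anchor channels in axons. At 7 dpi 36 were listed and 31 were higher in ApoE3 on the rescaled scale, against 49.2% of all genes. Their median was 0.15, against -0.0035 for all genes. Past 1.3-fold were 2 in ApoE3 and 1 in ApoE4, on a scale where 3.61% and 4.91% of all genes were. At 21 dpi 34 were listed, with a median of -0.42 as deposited and -0.016 rescaled; 3 were past the threshold in ApoE3 and 5 in ApoE4 after rescaling, against 6.52% and 9.6% of all genes. From 7 to 21 dpi 9 of 31 were past it higher and 4 lower in ApoE3 after rescaling, against 24.7% and 29.1% of all genes, and 12 and 2 in ApoE4, against 25.3% and 28.2%, with medians of 0.21 and 0.26. Their most abundant gene was Epb41l3, which links axonal Kv1 channels to the cytoskeleton, at 4768 and 4346 at 7 dpi, and it was not listed at 21 dpi. None was at 0.

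Neuron markers, at medians of 0.24, -0.071, 0.57 and 1.07 in the 4 comparisons (ApoE3 against ApoE4 at 7 and 21 dpi, then 21 against 7 dpi in ApoE3 and ApoE4), moved further than the channel genes over time, with summed FPKM of 10910.1, 8628, 12458 and 18942. Oligodendrocyte markers had medians of 0.10, -0.11, 0.13 and 0.34 (8 of 10 listed at 21 dpi, Mbp the most abundant). Markers of their precursors had medians of -0.17, -0.12, -0.37 and -0.77 (7 of 7 listed, Bcan the most abundant), and endothelial and mural cell markers of -0.089, 0.10, -0.37 and -0.77 (11 of 12 listed at 21 dpi, Flt1 the most abundant). Cspg4 is on both of these lists and is the middle gene of each over time, so the matching medians are the values of 1 gene. Astrocyte markers had genotype medians of 0.023 and -0.24, and those of microglia and macrophages -0.44 at 21 dpi. Neurons, astrocytes, oligodendrocytes and macrophages were thus all detected by their defining markers.

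**Figure D5:**
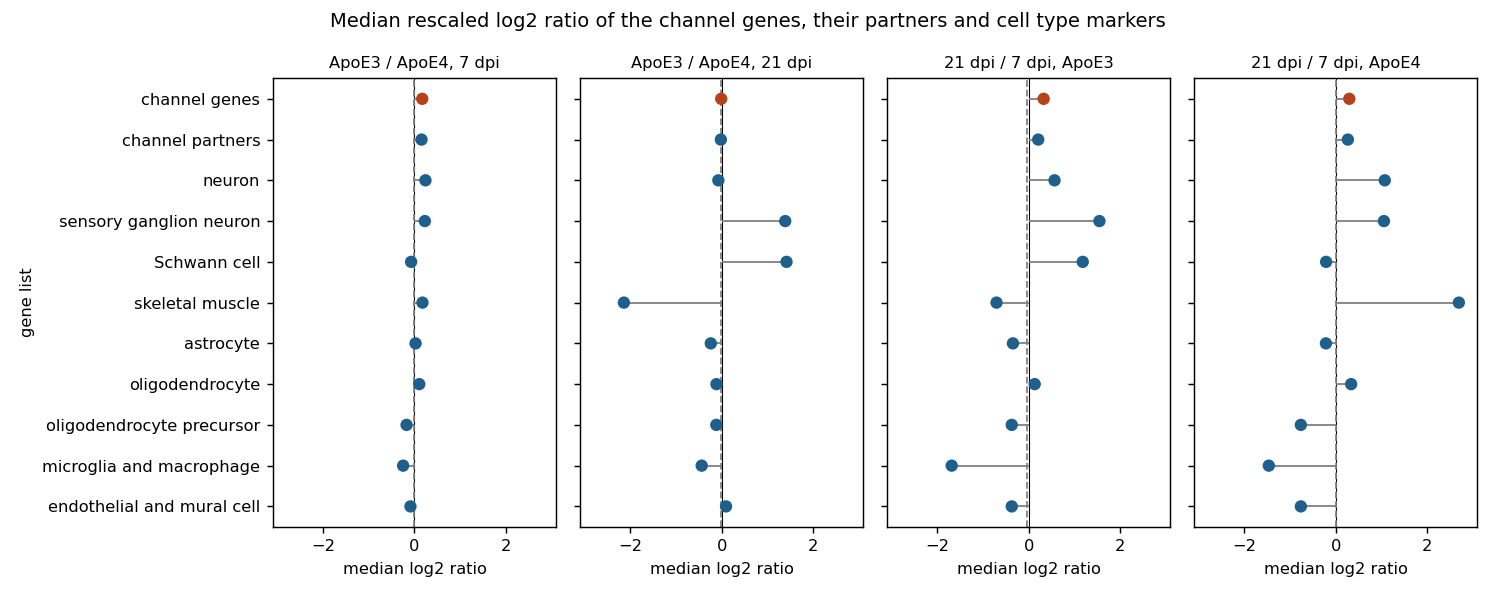
Median rescaled log2 ratio of the channel genes (red), their partners and 9 lists of cell type markers (blue) in the 4 comparisons; dashed lines mark the median of all genes. The channel genes lie at 0.17, -0.0089, 0.33 and 0.30, while Schwann cell and muscle markers lie more than 1 unit from 0 at 21 dpi. Sensory ganglion markers do so over the 13 listed then, but the 7 listed at both times have a middle value of 0.19.

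Features of sequence that the rule did not use were also compared between the channel genes and other genes. The longest GENCODE transcript of the 88 genes had a median of 4086 bases, against 3349 for the 14438 genes with a length, and 46.6% of them were in the longest tertile, against 33.3%. At 7 dpi length moved with the genotype ratio in the direction of the channel genes: from the shortest to the longest tertile the rescaled medians were -0.037, -0.0073 and 0.028 for all genes, and -0.0105, 0.12 and 0.20 for the 11, 35 and 41 channel genes in them. The part of length in the tilt was not tested. Over time it moved with the ratios in the other direction: the shortest tertile of all genes had rescaled medians of 0.27 in ApoE3 and 0.25 in ApoE4, the longest tertile -0.30 and -0.23, and the channel genes within it 0.094 and 0.22. Of the 88 genes, 65 matched an entry in the RefSeq promoter sequences of build GRCm38.p6, of which the 250 bases before the start were used. Their median GC content was 61.2%, against 52.0% for all 27025 promoters. Those include promoters of genes that are not listed here, whereas the channel promoters belong to listed genes only. The GC and motif values thus do not set the channel genes apart from other listed genes. The GC box GGGCGG, searched on both strands, was in 34 (52.3%), against 32.9% of all. The cyclic AMP response element TGACGTCA was in 0, against 1.62%, and the E box CACGTG in 2 (3.08%), against 6.05%. A match is a run of letters and not a site of binding. Entries were missing for Cacna1a, Kcnt1, Kcna1 and Kcnj11, among others.

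The 250 bases before the start are shown for 3 genes the results turn on, from 5′ to 3′ on the strand of the gene in build GRCm38.p6, with GC boxes in capitals on either strand (GGGCGG or CCGCCC). They are Cacna1b at chr2:24763153-24763402 on the minus strand, Kcnj10 at chr1:172340960-172341209 on the plus strand and Kcnmb2 at chr3:31902453-31902702 on the plus strand. Cacna1b, higher in ApoE3 at 21 dpi, has 3 boxes in 72.0% GC, Kcnj10, lower at 21 dpi, has 2 in 62.0% GC, and Kcnmb2, of opposite genotype ratios at the 2 time points, has 0 in 47.2% GC.
Cacna1b: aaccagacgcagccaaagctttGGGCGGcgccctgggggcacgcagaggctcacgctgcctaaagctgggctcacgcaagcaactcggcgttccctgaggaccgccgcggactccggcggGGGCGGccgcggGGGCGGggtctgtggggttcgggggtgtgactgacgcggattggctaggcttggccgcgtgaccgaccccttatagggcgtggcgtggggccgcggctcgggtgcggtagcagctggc
Kcnj10: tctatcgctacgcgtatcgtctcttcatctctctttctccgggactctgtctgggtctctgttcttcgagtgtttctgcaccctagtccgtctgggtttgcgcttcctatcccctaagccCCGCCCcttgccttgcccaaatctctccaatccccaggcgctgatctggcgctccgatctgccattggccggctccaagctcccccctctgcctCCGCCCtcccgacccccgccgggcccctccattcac
Kcnmb2: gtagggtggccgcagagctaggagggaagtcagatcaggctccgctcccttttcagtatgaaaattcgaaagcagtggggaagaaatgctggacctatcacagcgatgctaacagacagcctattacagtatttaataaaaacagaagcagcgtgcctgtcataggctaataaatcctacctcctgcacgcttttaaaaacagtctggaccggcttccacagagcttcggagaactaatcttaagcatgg
The 3 promoters are single examples, and no relation to expression was tested.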

How the data were processed

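RNA-seq of the lesion segment was deposited as FPKM plus 1, with 1 value per gene and group, and the authors made these FPKM values with STAR 2.5.4b, Bowtie2 2.1.10, SAMtools 0.1.7 and Cuffdiff 1.3.0, per the labels, after thinning all libraries to an equal number of reads. The genome build was not given in the sources used here. The table also holds the authors' p-values, q-values and fold changes, and another table their differentially expressed genes; of these the fold change served only to tell which value column comes first in a comparison, and the rest were not used. Subtracting 1 gave FPKM. Symbols on 2 rows at a time point (8 rows in all) were left out. Log2 ratios used a pseudocount of 1 and a fold of 1.3, the scale of the study. Reads per gene are unknown, so no counting error is given. Lists held channel partners and 9 cell types.

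Members and lists were chosen with earlier results of these data known. Named genes were the 10 largest rescaled ratios in each genotype comparison, the 15 most abundant, the most abundant of each family and genes of known role. Cacna1i, Cacnb1, Kcna6, Kcnf1, Kcnh5, Kcnip2, Kcnj9, Kcnk9, Kcnn3 and the partners Abcc8, Abcc9, Cacna1s, Cntn2 and Cntnap2 were chosen after their values were seen. A few genes that the rule takes are counted in the totals, but their own values are not reported here. Computations used Python 3.11.15, numpy 2.4.6, pandas 2.3.3 and matplotlib 3.10.9, and were tested on simulated data.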

Additional observations from a re-analysis of the deposited data

Results flagged for a closer look

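Kcnmb2, the beta subunit that inactivates BK channels, was past 1.3-fold in opposite directions at the 2 time points. Its rescaled log2 ratio of ApoE3 to ApoE4 was 0.57 at 7 dpi and -0.46 at 21 dpi, and the direction at each time point was the same as deposited (0.58 and -0.85). FPKM was 9.16 in ApoE3 and 5.81 in ApoE4 at 7 dpi, and 7.36 and 14.1 at 21 dpi. After rescaling it was the single gene of the 69 listed at both time points with this pattern. As deposited, Cacna2d1 (0.47 and -0.44), Cacna1e (0.43 and -0.62) and Kcnk10 (0.39 and -0.75) showed it too. The count of this pattern over all genes is not given here, and whether 1 of 69 is unusual was not tested. The difference between the time points was not tested, since each group has 1 value. The same 4 values give the opposite changes of Kcnmb2 from 7 to 21 dpi in ApoE3 (-0.40) and ApoE4 (0.62). Measured against Kcnmb4, the neuronal beta subunit, FPKM of Kcnmb2 was 0.305 and 0.207 times as high at 7 dpi and 0.157 and 0.209 times at 21 dpi, so that its rank between genotypes also turned without any scaling.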

How the results depend on the processing

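The scale and the fold threshold both moved the counts at 21 dpi. At 21 dpi rescaling left 6 channel genes past the threshold toward ApoE3 and 6 toward ApoE4, with a median ratio of -0.0089. With the median log2 ratio subtracted instead, the counts were 6 and 6 and the median turned to 0.0081, against 0.0004 for all genes. In ApoE4 over time, rescaling gave 30 higher and 5 lower genes at 21 dpi with a median of 0.30, and subtraction 32 and 5 with a median of 0.31; in ApoE3 rescaling gave a median of 0.33. Of genes named here and past 1.3-fold as deposited, the ratio of ApoE3 to ApoE4 at 21 dpi turned under rescaling for Kcnn2 (0.021) and Kcnj9 (0.0044), and under subtraction for Kcnn2 (0.017), Kcnj9 (0.0132), Kcna1 (0.015) and Cacng4 (0.0030). Smaller deposited ratios turned too, among them Kcnt1 (-0.041 to 0.39 under rescaling), Cacna1g (-0.17 to 0.26) and Cacna1d (-0.25 to 0.18). These turns follow from the shift of all genes that both alternatives remove.

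With a minimum fold of 1.5 as deposited, 7 dpi had 1 channel gene higher in ApoE3 and 2 in ApoE4 (1.22% and 1.51% of all genes), so that the balance of 6 against 2 did not hold, and 21 dpi had 0 in ApoE3 against 19 in ApoE4 (1.34% and 23%). Over time 22 were higher and 4 lower in ApoE3 (20.4% and 16%), and 50 higher and 0 lower in ApoE4 (46.2% and 7.49%). After rescaling, an alternative chosen after seeing the data, the counts at 1.5-fold were 1 and 2 at 7 dpi (1.21% and 1.54% of all genes), and at 21 dpi 3 in ApoE3 and 1 in ApoE4 (3.23% and 4.61%), so that the balance turned. Over time they were 9 higher and 6 lower in ApoE3 (14.9% and 20%), and 21 and 3 in ApoE4 (15.7% and 19.1%). With a fold of 2 as deposited the counts were 0 and 0 at 7 dpi, 0 and 0 at 21 dpi, 3 higher and 2 lower over time in ApoE3, and 25 and 0 in ApoE4; for all genes at that fold, 0.34% and 0.255% were past it at 7 dpi, 0.741% and 3.77% at 21 dpi, 6.1% and 7.25% over time in ApoE3 and 21.3% and 4% in ApoE4. Pseudocounts of 0.1 and 0.01 and a minimum mean FPKM of 1 left all 12 counts and medians within 1.5 times or 0.1 of the values as deposited.

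Each group has 1 value, so the spread between 3 mice is unknown, and a single mouse or library cannot be left out. No paired analysis was possible because each group has 1 value and no numbered mice. The genotype of the columns rests on the name of the comparison and on the value that its fold change divides. By the methods 1 library aligned at a lower rate than the rest, and its group was not named. Gene levels near 1 FPKM, such as Kcnf1 and Kcnh5, rest on an unknown number of reads, and the pseudocount shrinks their ratios.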
